A study of Mus musculus with 6 samples.

Results

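MHC class II presentation was examined through 9 genes in HOXA9-immortalized granulocyte-macrophage progenitors (iGMPs). They were taken by symbol from the 34199 gene symbols in the count tables and comprise the classical class II chain genes H2-Aa, H2-Ab1 and H2-Eb1, the DM genes H2-DMa and H2-DMb1, the DO genes H2-Oa and H2-Ob, the invariant chain gene Cd74 and the transactivator gene Ciita. Bulk RNA-seq had been done on 6 libraries, 2 in each of 3 groups, all of the mouse line Lys-GFP-ER-HoxA9 (strain C57Bl/6), which carries a Lysozyme-promoter GFP reporter and an estradiol-dependent fusion of HOXA9 to a mutant estrogen receptor, and which grows in stem cell factor. CAF-1 OFF cells received 500 µM IPTG for 24 h, which switches on a short hairpin RNA against Chaf1b, a subunit gene of the histone chaperone CAF-1, in 150 ng/ml estradiol. Control cells received IPTG for 24 h in estradiol, at a dose their label does not give. For IPTG treatment the study describes separate clones with a control vector, and the sample titles do not say what these control cells carried. A difference of vector or clone between CAF-1 OFF and control thus cannot be told apart from the hairpin. HOXA9 OFF cells were cultured for 24 h without estradiol, and their labels name neither IPTG nor a vector or clone, so a difference from control in these cannot be told apart from estradiol withdrawal. The study made clonal lines from these cells and describes independent subclones for RNA-seq at other times, but nothing ties subclones to these replicate numbers. The labels do not say that libraries of a group came from separate cultures, so the tests measure only the spread between these libraries.

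Class II molecules are built from an alpha and a beta chain and display peptides from endocytosed proteins to CD4+ T cells. The invariant chain guides new class II molecules to endosomes and fills their groove until proteases cut it down to a fragment called CLIP. DM then exchanges CLIP for other peptides, and DO binds DM and restrains it. Ciita is recruited to the X and Y boxes of class II promoters by factors that bind DNA there, and interferon gamma is the best known signal that turns it on. Dendritic cells, B cells and activated macrophages carry high levels of class II, whereas granulocytes and their progenitors are not among these main presenting cells. C57BL/6 mice do not display the I-E molecule, because the alpha chain gene that would partner H2-Eb1 is not transcribed in this strain.

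To show the promoter elements through which these genes are controlled in presenting cells, 250 bases before each start in the RefSeq promoter table (build GRCm38.p6) were searched for the X box core, written CNNNNAAC, followed after 15 to 35 bases by the Y box TGATTGG. Both strands were searched, and the pattern was drawn up after the sequences had been seen. The table held 6 of the 9 members, and 5 of these 6 had the arrangement (H2-Aa, H2-Eb1, H2-DMb1, H2-Oa and H2-Ob), against 128 of all 27025 genes in the table (0.47%). H2-DMa had no match, but its table starts lie 9664 and 12350 bases from the start in the annotation of the files' build, so these windows do not cover that start. Matches are descriptions of letters and not bound sites. The 110 bases that end 20 bases before the RefSeq start are given for the gene with the largest fold difference in CAF-1 OFF (H2-Aa), for the DO genes, whose values diverged in HOXA9 OFF, and for H2-Eb1, which was almost without reads. They are written 5′ to 3′ on the gene's strand, with the X core and the Y box in capitals, and were placed on NCBIM37 by exact match. The H2-Aa window is chr17:34424789-34424898 on the minus strand, and the others are on the plus strand at chr17:34442682-34442791 (H2-Eb1), chr17:34229194-34229303 (H2-Oa, with overlapping X core matches) and chr17:34375720-34375829 (H2-Ob).
H2-Aa: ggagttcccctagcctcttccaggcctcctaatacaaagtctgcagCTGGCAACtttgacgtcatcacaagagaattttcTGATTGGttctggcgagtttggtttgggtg
H2-Eb1: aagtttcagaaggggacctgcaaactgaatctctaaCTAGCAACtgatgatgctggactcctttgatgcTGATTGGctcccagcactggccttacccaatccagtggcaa
H2-Oa: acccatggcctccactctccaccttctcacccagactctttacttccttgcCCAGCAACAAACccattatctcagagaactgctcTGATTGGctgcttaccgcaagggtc
H2-Ob: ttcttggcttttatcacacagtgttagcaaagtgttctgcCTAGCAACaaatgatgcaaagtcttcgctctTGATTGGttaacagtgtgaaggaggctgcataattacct
All 4 windows hold the pattern, with 26 bases between X core and Y box in H2-Aa, 25 in H2-Eb1, 26 in H2-Oa (from the first core) and 23 in H2-Ob. The spacing was thus alike in H2-Oa, read in 30 to 151 counts per library, and in H2-Eb1, which had a single read in all.

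The libraries held 16773560 to 25170898 counts assigned to genes, at which 3 counts correspond to 0.118 to 0.182 CPM, the read count relative to a library size that was scaled by trimmed-mean (TMM) factors. Errors of levels are SD with n = 2, and errors of log2 fold changes are standard errors (SE) of the fit. Chaf1b, the hairpin's target, had 17.8 and 12.1 CPM where the hairpin was induced, against 90.0 and 105 CPM in the control libraries and 64.6 and 61.4 CPM in HOXA9 OFF. Both groups were lower than control in the test (edgeR quasi-likelihood FDR 0.0198 for CAF-1 OFF and 0.0396 for HOXA9 OFF). All 9 granulocyte-macrophage progenitor markers, among them Kit, Mpo and Elane, had more than 3 counts in every library. Of the defining markers of other cells, none of 5 T cell markers had more than 2 counts. Of 9 dendritic cell markers 3 to 5 had more than 3 counts in a library, Flt3 with the most reads in each, while Batf3 and Cd209a were at 0 throughout. Of 7 B cell markers 3 or 4 had more than 3 counts, among them Cd79b, while Pax5 and Ms4a1 did not pass 2 counts.

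The iGMPs transcribed the peptide editing genes of the class II pathway and hardly its display genes. H2-DMa, H2-DMb1, H2-Oa and H2-Ob together took 97.7% to 99.1% of the counts of the 9 members in the CAF-1 OFF and control libraries, and 98.9% and 94.1% in HOXA9 OFF. H2-Aa, H2-Ab1 and H2-Eb1 together took 0.33% and 0.335% in control (exact 95% binomial intervals 0.0681% to 0.961% and 0.0692% to 0.976%) and 1.46% and 2.04% in CAF-1 OFF (0.884% to 2.28% and 1.23% to 3.16%), where H2-Aa gave 32 of the counts over both libraries. In HOXA9 OFF they took 0.129% and 0.34% (0.0156% to 0.464% and 0.0926% to 0.867%). Such intervals and floors, here and below, cover the error of counting alone, since PCR copies of a molecule are counted as separate reads. In bulk RNA, a few cells with much of a transcript cannot be told apart from many cells with little.

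**Figure D1:**
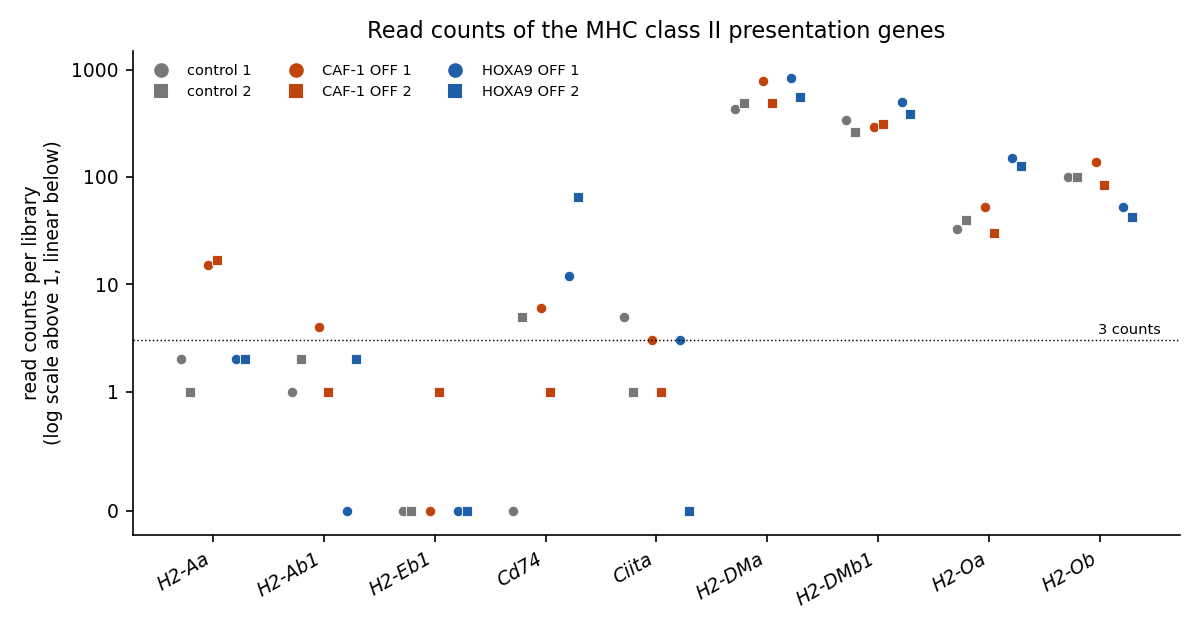
Read counts of each of the 9 members (x axis) in each of the 6 libraries, on a y axis that is logarithmic above 1 count and linear below. Circles are replicate 1 and squares replicate 2 of each group, and the dotted line marks 3 counts. The DM and DO genes lie between 30 and 831 counts in all libraries, whereas H2-Ab1, H2-Eb1 and Ciita stay at or below 5.

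Per length, in CPM per kb of exon, the control levels ordered as H2-DMa (13.7 ± 4.88), H2-DMb1 (9.66 ± 0.84), H2-Ob (1.52 ± 0.425) and H2-Oa (1.38 ± 0.552), followed by Cd74 (0.103 ± 0.146), H2-Ab1 (0.0473 ± 0.033), H2-Aa (0.0344 ± 0.0073), Ciita (0.0205 ± 0.0158) and H2-Eb1 with no count. The libraries of H2-DMa and H2-DMb1 overlapped, as did those of H2-Ob and H2-Oa, and both DM genes were above both DO genes in each control library. From Cd74 down, neighbours in the order did not differ beyond their spread, and all these control values came from 0 to 5 counts per library. In HOXA9 OFF the order was H2-DMa (22.4 ± 2.83 CPM per kb), H2-DMb1 (16.1 ± 0.363), H2-Oa (5.70 ± 0.223), Cd74 (1.60 ± 1.69) and H2-Ob (0.786 ± 0.00823), so that H2-Oa stood above H2-Ob there. The Cd74 libraries lay on both sides of H2-Ob, at 0.411 and 2.79 CPM per kb. Of the 9 members 6 had enough reads for the test across genes, and H2-Ab1, H2-Eb1 and Ciita did not. H2-Aa entered the test only through its CAF-1 OFF libraries and Cd74 only through its HOXA9 OFF libraries, so their entry depended on the groups in which they were high.

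Ciita (chromosome 16, 10480237 to 10527657, plus strand, protein coding) had 5 and 1 counts in control, 3 and 1 in CAF-1 OFF, and 3 and 0 in HOXA9 OFF. These values overlap in all groups and are at or near the floor of 3 counts. The ratio to control of its summed counts per library size was 0.73 in CAF-1 OFF (exact 95% counting interval 0.151 to 3.08) and 0.573 in HOXA9 OFF (0.0928 to 2.68). A change of Ciita within those intervals was not detectable at this depth.

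The 3 comparisons share libraries, so they are given side by side and are not independent of each other. A gene counts as called where groups differed by 1.5-fold or more and the edgeR quasi-likelihood test gave a false discovery rate (FDR, adjusted by Benjamini-Hochberg over all 12460 genes tested) under 0.05.

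The first comparison asked how these genes stood 24 h after the Chaf1b hairpin was switched on. No DM or DO gene was called, and the member with the greatest difference was H2-Aa, which encodes the alpha chain of the I-A molecule. None of the 6 tested members was called in CAF-1 OFF against control, where the background was 0.0321% of genes called. At an unadjusted p under 0.05 there was 1 member, H2-Aa, beside 1330 of all genes (10.7%), and DESeq2 called no member and 192 genes. With 4 genes called in all by the quasi-likelihood test, the absence of a call there carries little information about the members, or about the gene lists and the region described below.

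H2-Aa (chromosome 17, 34406276 to 34424772, minus strand, protein coding) had 2 and 1 counts in control, 15 and 17 in CAF-1 OFF, and 2 and 2 in HOXA9 OFF. Both CAF-1 OFF libraries thus stood above the other 4, at 0.82 ± 0.0576 CPM against 0.0683 ± 0.0145 CPM in control. The ratio of summed counts per library size was 11.7 (32 against 3 counts, exact 95% counting interval 3.65 to 59.6). In the fit across genes the log2 fold change was 3.44 ± 0.65 (SE) with an edgeR quasi-likelihood FDR of 0.161, and without a filter on low counts, where 378 of 19883 genes were called, the FDR was 0.0401. Against HOXA9 OFF, H2-Aa was higher in CAF-1 OFF by 2.86 ± 0.62 on the log2 scale (edgeR quasi-likelihood FDR 0.0159). That call was lost with DESeq2 (adjusted p = 0.0661) and when any of the 4 CAF-1 OFF and HOXA9 OFF libraries was left out (edgeR FDR 0.0676 to 0.12).

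The gene of the partner chain was near the floor in all groups. H2-Ab1 (chromosome 17, 34400154 to 34406363, plus strand, protein coding), which encodes the I-A beta chain, had 1 and 2 counts in control, 4 and 1 in CAF-1 OFF, and 0 and 2 in HOXA9 OFF, with overlapping groups. Its ratio to control in CAF-1 OFF was 1.82 (5 against 3 counts, exact 95% counting interval 0.355 to 11.7). The genes H2-Aa and H2-Ab1 end against each other on opposite strands and share 17 exonic bases, and whether the counting used strand is not stated, so how reads confined to that overlap were counted is not known. H2-Eb1 (chromosome 17, 34442828 to 34453144, plus strand, protein coding), the I-E beta chain gene, had 1 count in 1 CAF-1 OFF library and none in the other 5. H2-Eb2, a neighbouring beta chain gene, had 4 and 7 counts in control, 3 and 0 in CAF-1 OFF, and none in HOXA9 OFF.

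The DM genes showed overlapping or nearly equal levels in CAF-1 OFF and control. H2-DMa was at 16.8 and 28.1 CPM in control and at 40.9 and 24.7 CPM in CAF-1 OFF, with a log2 fold change of 0.55 ± 0.31 (edgeR quasi-likelihood FDR 0.587). H2-DMb1 was at 13.4 and 15.2 CPM in control and at 15.2 and 15.7 CPM in CAF-1 OFF, a log2 fold change of 0.12 ± 0.14 (edgeR quasi-likelihood FDR 0.82). The DO genes overlapped too. H2-Oa was at 2.75 and 1.52 CPM against 1.30 and 2.32 CPM (log2 fold change 0.26 ± 0.42, edgeR quasi-likelihood FDR 0.874), and H2-Ob at 7.12 and 4.25 CPM against 3.93 and 5.86 CPM (0.22 ± 0.34, FDR 0.868). Within both groups H2-DMa, H2-Oa and H2-Ob were higher in the same library, CAF-1 OFF replicate 1 and control replicate 2, and the signs of the H2-Oa and H2-Ob differences turned without CAF-1 OFF replicate 1 (-0.24 and -0.20 on the log2 scale) and without control replicate 1 (-0.12 and -0.04).

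The second comparison set cells without active HOXA9, which enter myeloid differentiation, against control. The peptide editing genes lay on different sides of control. H2-DMb1, the DM beta chain gene, and H2-Oa, the DO alpha chain gene, rose in HOXA9 OFF against control, while H2-Ob, the DO beta chain gene, lay lower in both libraries without passing the test. Of the 6 tested members 2 were thus called in HOXA9 OFF against control, both higher. The background was 22.0% of genes called in either direction, 13.0% higher and 8.97% lower. Members were few and Cd74 entered the test through its HOXA9 OFF libraries, so this count is a description and is not read against that background.

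H2-Oa (chromosome 17, 34229285 to 34232179, plus strand, protein coding) was at 7.29 and 7.70 CPM in HOXA9 OFF, against 1.30 and 2.32 CPM in control and 2.75 and 1.52 CPM with the hairpin. Both HOXA9 OFF libraries were above the other 4. The log2 fold change against control was 2.06 ± 0.41, a 4.18-fold difference (edgeR quasi-likelihood FDR 0.0115). The call was lost without control replicate 1, where the log2 fold change was 1.68 (edgeR quasi-likelihood FDR 0.0586).

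H2-DMb1 (chromosome 17, 34290017 to 34297168, plus strand, protein coding) was at 24.2 and 23.5 CPM in HOXA9 OFF against 13.4 and 15.2 CPM in control. The groups did not overlap, and the log2 fold change was 0.74 ± 0.14, a 1.67-fold difference (edgeR quasi-likelihood FDR 0.0105). Without control replicate 1 or without HOXA9 OFF replicate 1 the call was lost (edgeR quasi-likelihood FDR 0.0747 and 0.0706). H2-DMb1 shares 27.08% of its 50-base stretches with H2-DMb2, a second beta chain gene beside it, so reads from the shared part may be missing or misplaced in both counts. H2-DMb2 had 182 and 89 counts in HOXA9 OFF, against 65 and 21 in control and 44 and 29 with the hairpin. It rose in HOXA9 OFF by 1.89 ± 0.46 on the log2 scale (edgeR quasi-likelihood FDR 0.0229).

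H2-DMa (chromosome 17, 34272127 to 34276046, plus strand, protein coding), whose product pairs with the DM beta chain, was at 40.1 and 33.5 CPM in HOXA9 OFF. Both values exceeded the control values of 16.8 and 28.1 CPM, and the log2 fold change of 0.72 ± 0.31 was of the size seen for H2-DMb1 but with a wider error (edgeR quasi-likelihood FDR 0.127). It was below the threshold without the filter on low counts (FDR 0.00575).

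H2-Ob (chromosome 17, 34375848 to 34390850, plus strand, protein coding) was at 2.51 and 2.55 CPM in HOXA9 OFF, against 3.93 and 5.86 CPM in control and 7.12 and 4.25 CPM with the hairpin. Both HOXA9 OFF libraries were below the other 4. Against control the log2 fold change was -0.95 ± 0.36 (edgeR quasi-likelihood FDR 0.0897), and CAF-1 OFF exceeded HOXA9 OFF by 1.17 ± 0.36 (FDR 0.0478). The second difference was called by a small margin and was lost when any of the 6 libraries but CAF-1 OFF replicate 2 was left out, with an edgeR quasi-likelihood FDR of up to 0.209.

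**Figure D2:**
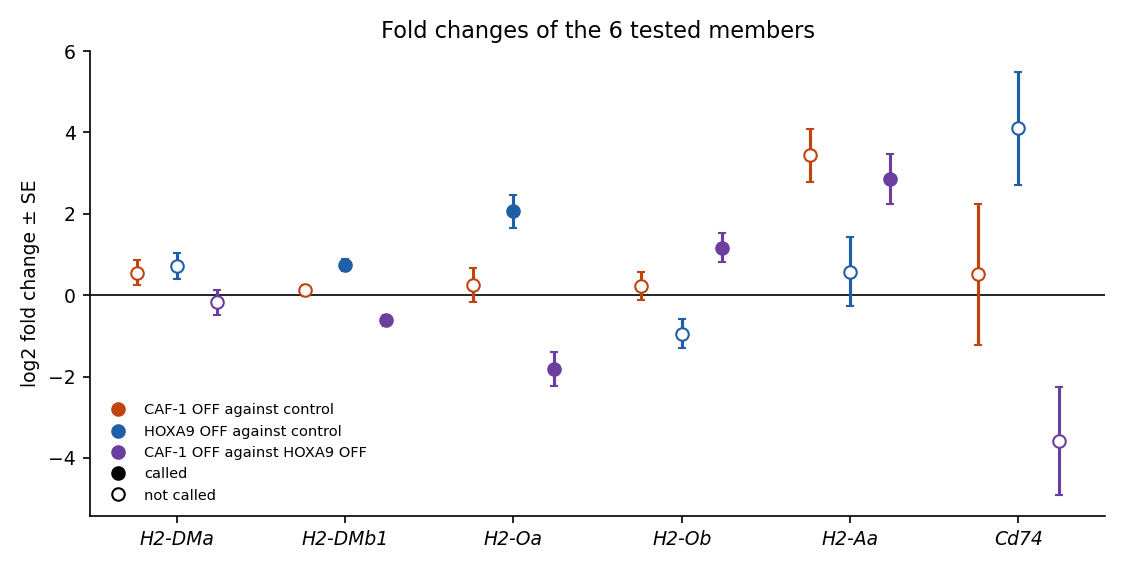
Log2 fold changes of the 6 tested members in the 3 comparisons, with bars of 1 standard error from the edgeR quasi-likelihood fit. Filled points are called. H2-Oa is at 2.06 and H2-Ob at -0.95 in HOXA9 OFF against control, while no member is called in CAF-1 OFF against control.

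The balance between the DO chains, read within each library and so free of library scaling, separated HOXA9 OFF from the other groups. H2-Oa made up 24.8% and 28.4% of the H2-Oa plus H2-Ob counts in control (exact 95% binomial intervals 17.7% to 33.0% and 21.1% to 36.6%) and 27.9% and 26.3% in CAF-1 OFF (21.6% to 34.8% and 18.5% to 35.4%). In HOXA9 OFF it made up 74.4% and 75.1% (67.8% to 80.2% and 67.9% to 81.5%). Per kb of exon, H2-Oa stood to H2-Ob as 0.808 and 0.969 to 1 in control, 0.947 and 0.874 to 1 in CAF-1 OFF, and 7.11 and 7.40 to 1 in HOXA9 OFF. By these lengths the DO alpha and beta transcripts were near parity in control and CAF-1 OFF and unequal in HOXA9 OFF. The lengths pool the exons of all annotated transcripts of a gene, with 4 coding ones for H2-Ob and 1 for H2-Oa. Near parity thus depends on which of them were present, which was not tested. The ratio itself was not fitted across genes, and with 2 libraries a group an exact two-sided permutation test cannot go below p = 0.333.

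Both DO genes together took 14.8% and 15.9% of the DM and DO member counts in control and 13.2% and 15.2% in HOXA9 OFF, within 12.5% to 15.9% over the 6 libraries, with overlapping groups. The alpha chain genes of DM and DO differed more between the groups. H2-DMa stood to H2-Oa, per kb, as 10.4 and 9.69 to 1 in control, 11.9 and 13.0 to 1 in CAF-1 OFF, and 4.41 and 3.49 to 1 in HOXA9 OFF. H2-DMb2 took 16.0% and 7.45% of the H2-DMb1 plus H2-DMb2 counts in control, 13.1% and 8.53% in CAF-1 OFF, and 26.6% and 18.7% in HOXA9 OFF.

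**Figure D3:**
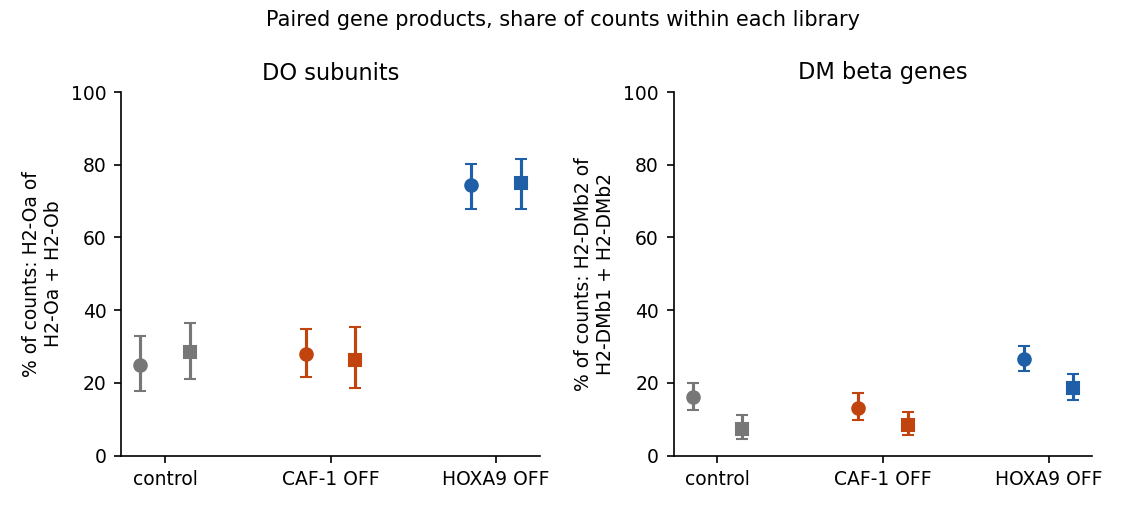
Share of counts, in percent, of H2-Oa among H2-Oa plus H2-Ob (left) and of H2-DMb2 among H2-DMb1 plus H2-DMb2 (right) in each library, with exact 95% binomial intervals that cover counting error only. The H2-Oa share is 24.8% to 28.4% in control and CAF-1 OFF and 74.4% and 75.1% in HOXA9 OFF.

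Cd74 (chromosome 18, 60963502 to 60972300, plus strand, protein coding) had 12 and 65 counts in HOXA9 OFF, against 0 and 5 in control and 6 and 1 with the hairpin. Both HOXA9 OFF libraries were above the other 4, but they differed widely from each other (0.579 and 3.94 CPM). The log2 fold change against control was 4.10 ± 1.39 (edgeR quasi-likelihood FDR 0.0668), with an FDR of 0.0291 in DESeq2 and 0.000143 in edgeR without the filter on low counts. The ratio of summed counts per library size was 17.7 (exact 95% counting interval 7.25 to 55.9). It was 4.94 without HOXA9 OFF replicate 2 (1.62 to 17.9) and 33.6 without HOXA9 OFF replicate 1 (13.7 to 107), where the edgeR FDR was 0.0469. Without HOXA9 OFF replicate 2 the FDR was 0.379 and without control replicate 1 it was 0.22.

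HOXA9 OFF replicate 2 also differed in markers of other cells. All 7 macrophage markers had more than 3 counts there, against 3 of 7 in HOXA9 OFF replicate 1 and 3 or 4 of 7 in the other libraries. Their summed level was 498 and 419 CPM in HOXA9 OFF replicates 2 and 1, against 28.1 to 50.9 CPM in control and 30.2 to 36.8 CPM in CAF-1 OFF. The complement gene C1qb, a marker of tissue macrophages, had 291 counts in replicate 2 and 3 in replicate 1, and C1qc had 99 and 1. Siglech, a marker of plasmacytoid dendritic cells, had 49 counts in replicate 2, 2 in replicate 1 and none elsewhere. Other markers did not follow this order. The dendritic cell marker Xcr1 had 8 counts in replicate 2 and 13 in replicate 1, and Emr1, a macrophage marker, had 148 and 180 CPM. The summed dendritic cell markers came to 9.76 and 8.01 CPM. These genes were singled out after their values had been seen, and their part in the Cd74 values was not tested.

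CAF-1 OFF and HOXA9 OFF differed from each other in 4 of the 6 tested members, with H2-Aa and H2-Ob higher and H2-DMb1 and H2-Oa lower in CAF-1 OFF. The background was 22.1% of genes called in either direction, 9.56% higher and 12.6% lower. H2-Aa entered the test through the group in which it was high, which favoured its call, so the count of 4 is a description and is not read against that background. H2-Oa lay lower in CAF-1 OFF by -1.81 ± 0.41 on the log2 scale (edgeR quasi-likelihood FDR 0.0177) and H2-DMb1 by -0.62 ± 0.14 (FDR 0.0191). H2-DMa differed by -0.17 ± 0.31 (FDR 0.712), and its libraries overlapped. Cd74 differed by -3.58 ± 1.32 (FDR 0.0834). Leaving out either HOXA9 OFF library ended all 4 calls. Without CAF-1 OFF replicate 1 the call of H2-Oa alone was held, and without CAF-1 OFF replicate 2 those of H2-DMb1 and H2-Ob.

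Of the 9 members 7 lie in the class II region of chromosome 17, which was examined from H2-K1 to H2-Eb2 (34132962 to 34477174). The files hold 28 genes of this stretch, of which 18 were tested, 5 of them members. Of the other 13, 3 were called higher in HOXA9 OFF against control and none lower, beside 13.0% and 8.97% of all genes. They were H2-DMb2, the collagen gene Col11a2 (log2 fold change 0.61) and Gm15821 (1.58), which lies inside Tap2 on the opposite strand. The median log2 fold change of those 13 was 0.20. H2-Oa and H2-DMb2 had the greatest differences of the 18 tested genes in HOXA9 OFF against control. In CAF-1 OFF against control no gene of the region was called, beside 0.0321% of all genes, and the median of the 13 was 0.01. The greatest difference there was that of H2-Aa (3.44).

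**Figure D4:**
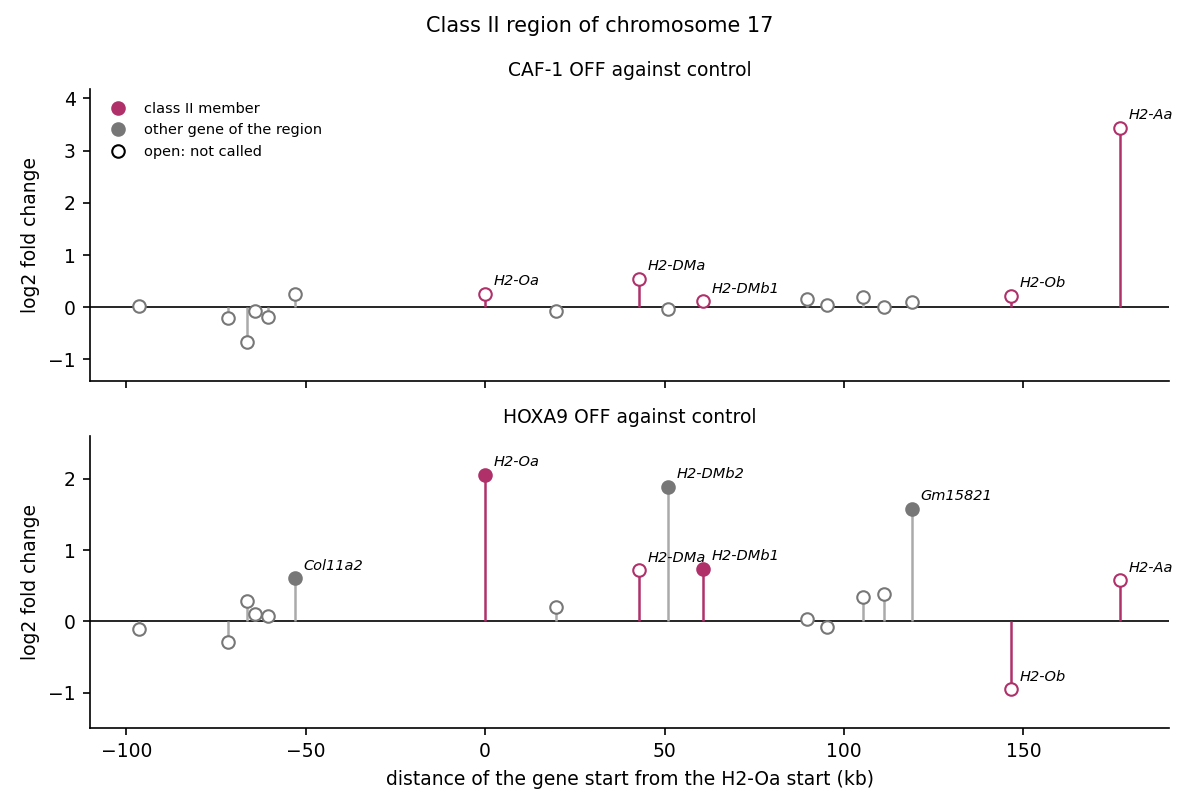
Log2 fold change (y axis) of the 18 tested genes of the class II region by distance of their start from the H2-Oa start in kb (x axis), for CAF-1 OFF against control (top) and HOXA9 OFF against control (bottom). Members are magenta, other genes grey, and open points are not called. In the lower panel H2-Oa (2.06), H2-DMb2 (1.89) and Gm15821 (1.58) lie highest, and H2-Ob (-0.95) lowest.

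The factors upstream of class II were listed by role. The list of factors that bind the X and Y boxes (RFX subunits, NF-Y subunits and Creb1) had 7 genes, and all 7 were tested. In HOXA9 OFF against control, where 22.0% of all genes were called, 1 of the 7 was called, Creb1, which fell to 123 ± 3.83 CPM, from 186 ± 10.1 CPM (edgeR quasi-likelihood FDR 0.0123 at a log2 fold change of -0.60 ± 0.12). The list median was -0.06, beside 0 for all genes. Rfxank, a subunit of the RFX complex, had 14.3 ± 0.93 CPM in HOXA9 OFF and a lower 9.02 ± 1.65 CPM in CAF-1 OFF (FDR 0.0416).

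Genes of interferon gamma signalling to Ciita were listed next, together with the interferon regulatory factor genes Irf4 and Irf8, so the list is wider than that pathway. Of the 9 listed genes, all tested, 5 rose and none fell in HOXA9 OFF against control, with Irf4 and Irf8 among the 5. In that comparison 13.0% of all genes rose and 8.97% fell, and the list had a median log2 fold change of 1.15. The receptor chain gene Ifngr2 went from 51.7 and 45.5 CPM in control to 110 and 106 CPM in HOXA9 OFF, and the kinase gene Jak2 from 41.6 and 44.2 to 111 and 96.0 CPM. The groups of both genes were well apart. Among the listed genes not called were Irf1 (log2 fold change 0.52 ± 0.22, edgeR quasi-likelihood FDR 0.121) and Socs1 (0.07 ± 0.54, FDR 0.941). Of the interferon regulatory factors, Irf4 was at 0.236 and 0.697 CPM in control and 29.2 and 35.5 CPM without estradiol (log2 fold change 6.20 ± 0.40, edgeR quasi-likelihood FDR 0.000375), and Irf8, a factor of monocyte and dendritic cell development, at 35.6 and 26.9 against 178 and 175 CPM. In CAF-1 OFF none of the 9 was called against control, beside 0.0321% of all genes, and Irf8 stood at 32.9 CPM in replicate 1 and 86.0 CPM in replicate 2.

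Genes that act on the invariant chain and antigens in endosomes, the proteases and the thiol reductase gene Ifi30, formed the next list. Of 8 listed genes, all tested, 4 rose and none fell in HOXA9 OFF against control (13.0% and 8.97% of all genes), and the median log2 fold change was 1.06. Ctss, the main protease of the last invariant chain step in presenting cells, had 903 and 1177 counts in HOXA9 OFF, against 18 and 28 in control and 24 and 24 with the hairpin. Its log2 fold change against control was 5.68 ± 0.41 (edgeR quasi-likelihood FDR 0.000493). Ctsb (1.57), Ctsd (1.21) and Ctsz (0.91), which encode general lysosomal proteases, also rose. None of the 8 was called in CAF-1 OFF against control, beside 0.0321% of all genes, and the median was 0.12.

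Of 6 genes for the turnover of surface class II and for costimulation, 4 were tested, and 2 rose in HOXA9 OFF against control, beside 13.0% of all genes. March1, a ubiquitin ligase that takes class II and CD86 off the surface, had 225 and 106 counts in HOXA9 OFF, against 7 and 6 in control and 6 and 8 with the hairpin, a log2 fold change of 4.79 ± 0.44 against control (edgeR quasi-likelihood FDR 0.000962). Cd80, a ligand of CD28 on T cells, was at 7.77 and 4.06 CPM against 1.92 and 0.929 CPM in control (2.03 ± 0.48, FDR 0.0216). Cd86, the other CD28 ligand, was called only between CAF-1 OFF (0.364 and 0.557 CPM) and HOXA9 OFF (3.38 and 11.2 CPM), and the control libraries lay apart at 0.628 and 5.98 CPM. Cd83 had no count in any library, and Cd40 had 3 counts in 1 control library.

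Class I presentation, which most nucleated cells carry out, was listed for comparison. All 10 listed genes were tested, 1 rose and 1 fell in HOXA9 OFF against control (13.0% and 8.97% of all genes), and the median log2 fold change was 0.08. Tapbp, the peptide loading factor tapasin, rose to 198 ± 9.59 CPM, from 111 ± 6.70 CPM (edgeR quasi-likelihood FDR 0.0066 at a log2 fold change of 0.83 ± 0.14). Nlrc5, which acts on class I genes as Ciita does on class II genes, fell to 20.9 ± 9.55 CPM, from 56.2 ± 6.98 CPM (-1.43 ± 0.30, FDR 0.0143). In CAF-1 OFF against control none of the 10 was called, beside 0.0321% of all genes, and the median was 0.02.

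**Figure D5:**
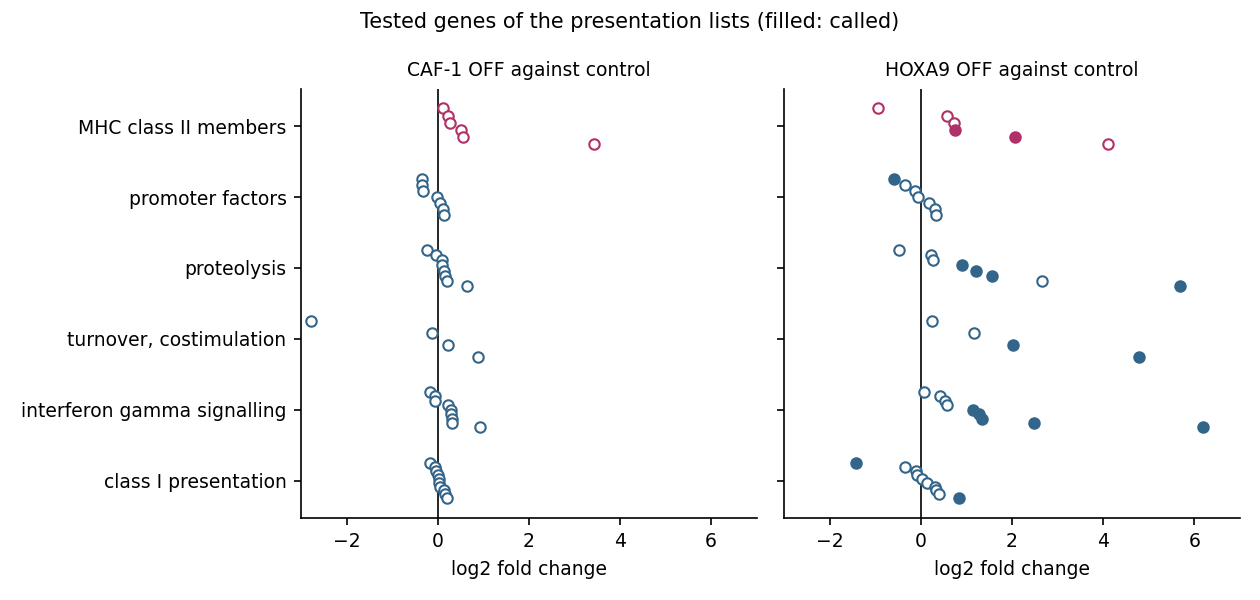
Log2 fold changes (x axis) of the tested genes of each presentation list (rows) in CAF-1 OFF against control (left) and HOXA9 OFF against control (right). Each point is a gene, spread vertically within its row for legibility, and filled points are called. No point is filled on the left, and the interferon gamma row has 5 filled points on the right.

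Markers of cells that present antigen moved with HOXA9 OFF in both directions, in a comparison where 13.0% of all genes rose and 8.97% fell. All 3 tested macrophage markers rose against control, with Csf1r, the receptor of macrophage colony-stimulating factor, at 215 and 292 CPM against 4.05 and 4.24 CPM (log2 fold change 5.94 ± 0.26, edgeR quasi-likelihood FDR 0.000103). Of 9 dendritic cell markers 3 were tested and 2 fell, and their summed level was 8.01 and 9.76 CPM against 241 and 333 CPM in control, where almost all of it was Flt3, which progenitors express as well. In HOXA9 OFF, Flt3 made up 5.02 and 3.46 CPM of that sum. Of 7 B cell markers 4 were tested and 2 fell, with Ebf1 at 2.51 and 3.03 CPM against 94.0 and 98.5 CPM in control. The remaining tested markers lay on the higher side without a call, Cd79a by 0.33 ± 0.59 and Cd79b by 0.34 ± 0.21 on the log2 scale. Cd79b was at 48.3 and 55.8 CPM in HOXA9 OFF against 34.7 and 47.5 CPM in control. Of the 9 progenitor markers 2 rose and 3 fell. None of these markers was called in CAF-1 OFF against control, beside 0.0321% of all genes, and their part in the member values was not tested.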

How the data were processed

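The authors aligned RNA-seq reads (NEB directional kit) to mm9 with STAR and deposited raw read counts per gene from HTSeq-count, without normalization. Gene annotation, strand setting and overlap mode are not given in the sources used here. By default, HTSeq-count does not count a read with more than 1 alignment. Each file ended in 5 tally lines, which were kept out of library sizes and tests. Reads without a feature came to 5.946% to 8.257% of the gene counts.

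Groups and replicate numbers came from the sample titles. Deposited counts were fitted in edgeR 4.0.16 (R 4.3.3, limma 3.58.1) with filterByExpr defaults, TMM factors (0.954 to 1.03) and 1 mean per group over all 6 libraries. The study's methods name edgeR and the thresholds on fold change and FDR but no particular edgeR test, and the quasi-likelihood test was chosen here. Libraries of a group were not duplicates (chi-square per degree of freedom at least 20.5). Exonic lengths and positions were read from GENCODE models on NCBIM37 (mm9). Promoter sequences are from RefSeq. The fit was tested on simulated counts. Ratios of summed counts and shares carry exact 95% intervals from scipy 1.17.1.

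The members and lists were chosen with earlier results of these data known. All members are named. Of the other lists (promoter factors, proteolysis, turnover and costimulation, interferon gamma signalling, class I, other class II genes and markers of dendritic, B, T, macrophage and progenitor cells), genes called in a comparison could be named, up to 6 per list and comparison. Cd83, Cd40, Ifi30, Irf1, Socs1, H2-Eb2, C1qb, C1qc, Siglech, Xcr1, Cd79a, Cd79b, Batf3, Cd209a, Pax5, Ms4a1, Mpo, Elane, Col11a2 and Gm15821 were named outside this rule, after their values were seen. Alternatives were other scalings, DESeq2 1.42.0, other filters and cutoffs, the replicate block, a fit to the 4 libraries compared, and leaving out each library.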

Additional observations from a re-analysis of the deposited data

How the results depend on the processing

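In CAF-1 OFF against control, no member was called under any setting but 1, the fit without an expression filter, which called 1 of 9 members (H2-Aa) and 378 of 19883 genes, against 4 of 12460 genes with the filter. In HOXA9 OFF against control the 2 calls became 5 of 9 members without the filter (3215 of 19883 genes called), 3 of 6 with DESeq2 (2830 of 12460 genes), 1 of 2 with a filter at a mean CPM of 5 (2279 of 9612 genes) and 0 at a 2-fold change and FDR under 0.01, and ranged from 0 to 2 when libraries were left out (0 without control replicate 1). In CAF-1 OFF against HOXA9 OFF the 4 calls became 5 of 9 without the filter (3258 of 19883 genes), 3 with library size alone (2809 of 12460 genes), 3 in a fit to the 4 libraries compared (2596 of 12251 genes), 1 of 2 with the filter at a mean CPM of 5 (2254 of 9612 genes) and 0 at the stricter cutoff, and ranged from 0 to 3 without single libraries. Over the listed genes of the pathway and the markers, the calls in CAF-1 OFF against control went from 0 to 3 without the filter, and at the stricter cutoff from 27 to 17 in HOXA9 OFF against control and from 28 to 15 in CAF-1 OFF against HOXA9 OFF, while those of all genes went from 2740 to 987 and from 2755 to 948. The sign turned only in uncalled values when a library was left out. In CAF-1 OFF against control, H2-Oa ranged from -0.24 to 0.73, H2-Ob from -0.20 to 0.56 and Cd74 from -1.21 to 4.93, with the lowest values without CAF-1 OFF replicate 1 and negative ones also without control replicate 1. H2-DMa ranged from -0.58 to 0.17 in CAF-1 OFF against HOXA9 OFF, positive without CAF-1 OFF replicate 2. Of 220 member fold changes under alternatives, 183 kept direction and side of the threshold, 22 lost a call, 8 gained one and 7 changed sign. A left-out library leaves a lone sample that is assumed to vary like the other groups. The causes of these shifts were not tested. H2-Ab1, H2-Eb1 and Ciita had at most 5 counts in a library, which limits what can be said of them.

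The labels do not say that replicate numbers pair cultures, so the main fit did not take them as pairs. The deviations of same-numbered libraries correlated at -0.178 (CAF-1 OFF and control), 0.456 (HOXA9 OFF and control) and 0.0329 (CAF-1 OFF and HOXA9 OFF). With the replicate block the members called were 0, 2 and 3 in the 3 comparisons (2, 2680 and 2684 of 12460 genes), H2-Ob losing its call in the last (edgeR FDR 0.0703). With crossed replicate numbers, a block added after the data were seen, they were 0, 5 and 5 (71, 2994 and 3030 genes), and 1 listed gene was called in CAF-1 OFF against control.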

Other observations

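The genes most like the joint profile of H2-Aa and Cd74 were sought over the 6 libraries, by the correlation of log2 CPM with the mean standardised log2 CPM of both. These members peaked in different groups and passed the expression filter only through those groups, so the profile is high in CAF-1 OFF and HOXA9 OFF by that selection and does not stand for the display genes as a whole. Of 11215 genes compared, the most alike were Rdh10 (Pearson r 0.99), Prf1 (0.985), Slc35b1 (0.985), Mknk2 (0.984) and Agpat3 (0.98), where r is a description over libraries that fall into groups. Prf1, the gene of the pore-forming protein perforin, was at 0.511 and 0.639 CPM in control, against 2.49 and 1.62 CPM in CAF-1 OFF and 1.11 and 2.12 CPM in HOXA9 OFF. Rdh10 covered a narrow range, 14.1 to 16.7 CPM over all libraries.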
